A study of Homo sapiens with 6 samples.

Results

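The genes described here encode 10 enzymes of ceramide and sphingolipid metabolism, namely the ceramide synthases CERS1, CERS2, CERS3, CERS4, CERS5 and CERS6, the glucosylceramide synthase UGCG, the acid sphingomyelinase SMPD1, the acid ceramidase ASAH1 and the sphingosine kinase SPHK1. They were chosen by name, with earlier results of these data known. Their rows were found among the 40488 Ensembl genes of the deposited table through a gene name table. All 10 were listed and passed the filter on low counts that left 17257 genes for testing. SCC90 is an established line of HPV-positive oropharyngeal squamous cell carcinoma. The RNA-seq libraries comprise 3 from cells transfected with a scrambled siRNA (siCtrl) and 3 from cells that received an siRNA against ΔNp63 (siDNp63), the isoform of the TP63 gene that lacks the N-terminal transactivation domain. RNA was taken 72 h after transfection, and the labels give the siRNA at 10 nM, while the study's methods give another concentration. Both groups share the cell line, the culture medium and the transfection reagent, no untransfected cells were analysed here, and a single siRNA against ΔNp63 was used, so that effects of that siRNA on other transcripts cannot be told apart from those of ΔNp63. Whether replicates are independent cultures is not stated, and p-values therefore reflect only how much these libraries vary, which may be technical.

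Ceramide is the core of all complex sphingolipids. It is made in the endoplasmic reticulum by the ceramide synthases, each of which prefers fatty acids of a certain length, and is then turned into sphingomyelin or glucosylceramide in the Golgi. In lysosomes it is released again from these lipids and is cut to sphingosine, which sphingosine kinases convert to the signalling lipid sphingosine 1-phosphate. In stratified epithelia, ceramides with very long acyl chains are a main lipid of the permeability barrier.

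Expected counts summed to between 35716277 and 52598831 per library. TP63 was at 42319 to 44204 normalized counts in siCtrl and at 14474 to 15520 in siDNp63 (log2 fold change −1.52), so the targeted gene went with the labels. Normalized counts were scaled with edgeR's TMM factors, and positive log2 fold changes stand for higher levels in siDNp63. The siDNp63 replicate 1 library stood apart on the second principal component of log counts, at −39.1 against 25.6 and 24.8 for replicates 2 and 3, and values without it are given below where they change a call, a direction or a value by a wide margin. Among 12 squamous epithelial markers, KRT6A and CDH1 were abundant, while the basal keratin genes KRT5 and KRT14 were at 4.12 to 8.24 TPM and 0.374 to 1.59 TPM over the libraries. Of these 12 markers, 6 rose, among them KRT14 (1.42 on the log2 scale) and KRT13 (0.80), and 3 fell, among them COL17A1 (−1.33) and ITGB4 (−0.83). SFN (0.19, edgeR adjusted p = 0.431) and DSP (−0.09, adjusted p = 0.0689) passed once siDNp63 replicate 1 was left out. They were then at 0.39 (edgeR adjusted p = 1.44e-04) and −0.11 (adjusted p = 0.0156), and ITGB4 was at −0.63. Markers of leukocytes and fibroblasts were low, with summed TPM of at most 8.06 and 10.9, and 1 of 4 tested fell in each list, CD14 (−1.26) and DCN (−1.32). Without siDNp63 replicate 1, DCN lost its call (−1.09, edgeR adjusted p = 0.0545) and CD14 was at −0.92 (adjusted p = 0.0107). DCN had only 5 to 30 counts per library. Of 7 endothelial markers, 4 were tested and 3 rose, among them PECAM1 and KDR (log2 fold change 2.39 and 2.36). ERG was not called (−0.16, edgeR adjusted p = 0.569). The summed level of the list was 3.17 to 4.25 TPM in siCtrl and 12.1 to 14.5 TPM in siDNp63, while CDH5 and CLDN5 had at most 6 counts in any library. The part of these markers in the results below was not tested.

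Of the 10 enzyme genes, 4 rose after ΔNp63 silencing and 2 fell at an adjusted p under 0.05 (edgeR's quasi-likelihood test, Benjamini-Hochberg adjustment over all genes tested). SMPD1, UGCG, ASAH1 and CERS2 rose, CERS3 and CERS5 fell, and CERS1, CERS4, CERS6 and SPHK1 did not pass the test. Over all 17257 genes, 33.6% passed this test, 18.4% as higher and 15.2% as lower. With an absolute log2 fold change over 1 as a further threshold, which 4.06% of all genes passed (2.35% higher, 1.71% lower), CERS3 alone remained, as lower. For 8 of the 10 genes, 4 in each direction, siDNp63 libraries lay wholly above or below siCtrl libraries, as was the case for 49.4% of all genes (24.7% in each direction). The median log2 fold change was 0.06 over the enzyme genes and −0.02 over all genes tested. Without siDNp63 replicate 1 the same 6 genes were called in the same direction, and CERS6 was added to the lower genes.

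**Figure D1:**
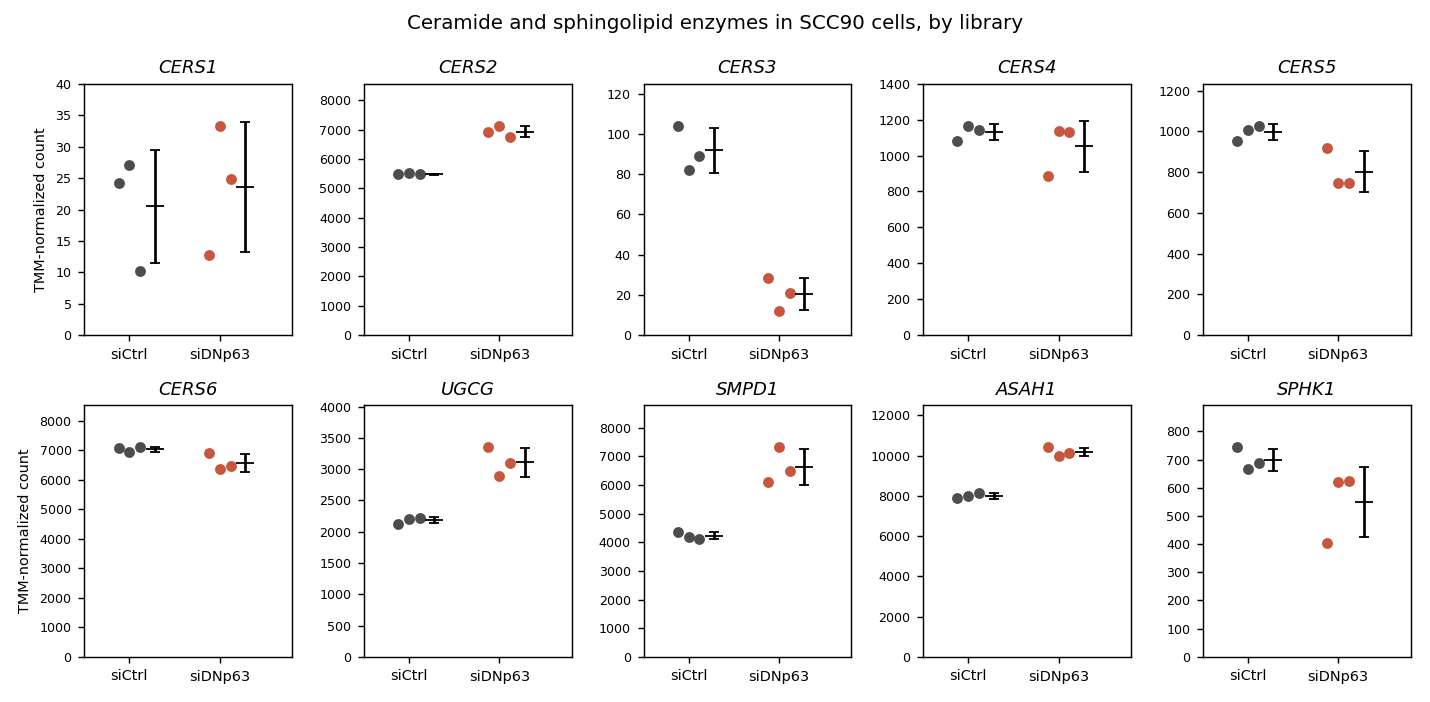
TMM-normalized counts (vertical axes, each from 0) of the 10 enzyme genes in the 3 siCtrl (grey points) and 3 siDNp63 (red points) libraries, with mean and SD in black, replicates 1 to 3 from left to right. All siDNp63 points of CERS2, UGCG, SMPD1 and ASAH1 lie above the siCtrl points, and those of CERS3 lie between 12.0 and 28.2 against 82.2 to 104 in siCtrl.

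CERS3 (ENSG00000154227; chromosome 15, 100400395 to 100544995 of GRCh38, minus strand), the ceramide synthase known for very long-chain ceramides of epidermis and testis, had the largest change of the 10 genes. Its normalized count was 104, 82.2 and 89.0 in siCtrl replicates 1, 2 and 3 and 28.2, 12.0 and 21.0 in siDNp63 replicates 1, 2 and 3. Every siDNp63 library was below every siCtrl library, and the change of −2.20 on the log2 scale passed the test (standard error 0.29, edgeR adjusted p = 8.98e-04), a 4.59-fold lower level. Without siDNp63 replicate 1, the highest of its group, it was −2.48 (adjusted p = 4.47e-04). These values rest on few reads, 79 to 120 counts in siCtrl and 14 to 22 counts in siDNp63. On the TPM scale, the authors' abundance per transcript length, its mean was 1.97 ± 0.545 (SD, n = 3) in siCtrl and 0.577 ± 0.435 in siDNp63. The mean length of CERS3 transcripts, as the ratio of counts to TPM implies it, differed 2.12-fold between libraries, against a median of 1.12-fold for all genes tested, and was lowest in siDNp63 replicate 1. With these lengths in the model the log2 fold change was −1.88 (edgeR adjusted p = 0.0291). A lncRNA gene on the other strand overlaps CERS3, and although the libraries keep the strand, kallisto was run with its default options, which do not use it, so reads of this pair cannot be told apart by strand.

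CERS2 (ENSG00000143418; chromosome 1, 150960583 to 150975003, minus strand) also makes very long-chain ceramides and is the most widely expressed synthase in human tissues. It was at 5476, 5511 and 5477 normalized counts in siCtrl and at 6920, 7144 and 6745 in siDNp63. The siCtrl libraries differed by less than the siDNp63 libraries, and the groups were well apart. The log2 fold change was 0.34 (standard error 0.04, edgeR adjusted p = 3.33e-04), a 1.26-fold rise, with nearly the same value without siDNp63 replicate 1 (0.34).

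CERS5 and CERS6 are the synthases that prefer palmitoyl-CoA. CERS5 (ENSG00000139624; chromosome 12, 50129289 to 50167533, minus strand) was at 953, 1005 and 1029 normalized counts in siCtrl and at 916, 746 and 747 in siDNp63. Replicate 1 of siDNp63 lay close to siCtrl replicate 1, and replicates 2 and 3 lay lower. The log2 fold change was −0.31 (standard error 0.09, edgeR adjusted p = 0.0308). The implied transcript length differed 1.28-fold between libraries, and mean TPM went from 52.6 in siCtrl to 35.7 in siDNp63. With transcript lengths in the model the log2 fold change was −0.50 (edgeR adjusted p = 0.0269). The call ended when siCtrl replicate 2 or 3 or siDNp63 replicate 2 or 3 was left out, with adjusted p from 0.0744 to 0.109 in edgeR, while without siDNp63 replicate 1 it was −0.41 (adjusted p = 0.00111). CERS6 (ENSG00000172292; chromosome 2, 168456249 to 168775134, plus strand) was at 7075, 6951 and 7106 normalized counts in siCtrl and at 6906, 6359 and 6459 in siDNp63. The groups did not overlap, but the difference was small (log2 fold change −0.10, 95% interval −0.20 to −0.00, edgeR adjusted p = 0.110). It passed the test without siDNp63 replicate 1 (−0.13, adjusted p = 0.0132), with counts scaled by library size alone (−0.19, adjusted p = 0.00644), and under a filter of 10 or more counts per library (−0.11, adjusted p = 0.0380).

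CERS4 and CERS1, which use long-chain acyl-CoAs around stearoyl-CoA, did not pass the test. CERS4 (ENSG00000090661; chromosome 19, 8206736 to 8262421, plus strand) was at 1081, 1167 and 1143 normalized counts in siCtrl and at 887, 1137 and 1132 in siDNp63. By normalized counts only siDNp63 replicate 1 was low, and the other 2 libraries lay within the siCtrl range. On the TPM scale every siDNp63 library was lower, at 20.5, 28.4 and 30.5 against 31.4 to 33.0 in siCtrl. The implied transcript length differed 1.21-fold between libraries. The log2 fold change was −0.10 (95% interval −0.33 to 0.13, edgeR adjusted p = 0.477) and 0.01 without siDNp63 replicate 1. With transcript lengths in the model it was −0.23 (edgeR adjusted p = 0.302). CERS1 (ENSG00000223802; chromosome 19, 18868545 to 18896727, minus strand) was near the limit of detection, with 9 to 28 counts in siCtrl and 10 to 39 in siDNp63. Its log2 fold change was 0.22 with a 95% interval of −0.82 to 1.26 (edgeR adjusted p = 0.741), so a difference was not detectable at this depth. CERS1 shares its locus with the growth factor gene GDF1, which was listed at 0 in all libraries.

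The ceramide synthases can be compared with each other on the TPM scale, since it is per transcript length. CERS2 held the largest share of the summed CERS1 to CERS6 TPM in every library, with 58.8%, 56.6% and 56.2% in siCtrl replicates 1, 2 and 3 and 68.2%, 70.2% and 67.8% in siDNp63. The mean share was 57.2% ± 1.37 (SD, n = 3) in siCtrl and 68.7% ± 1.30 in siDNp63, a difference of 11.6 percentage points. CERS5 and CERS6 together, a pair formed after their values were seen, took 28.9%, 31.3% and 32.1% in siCtrl and 24.6%, 20.3% and 21.9% in siDNp63. CERS5 was at 18.0% ± 2.18 and 11.6% ± 1.44 of the sum, CERS6 was at 12.8% ± 0.527 and 10.7% ± 0.751, and CERS4 at 11.1% ± 0.0983 and 8.57% ± 1.61. CERS3 took 0.544% to 0.925% in siCtrl and 0.0709% to 0.352% in siDNp63, and CERS1 took 0.102% to 0.385% over all libraries. The summed TPM itself was 281, 294 and 299 in siCtrl and 302, 315 and 308 in siDNp63, so all siDNp63 libraries lay above the siCtrl libraries by a narrow margin. The groups did not overlap for the sum and for the shares of CERS2 to CERS6, each with an exact two-sided permutation p = 0.1, the smallest that 3 against 3 libraries can give, so none of these differences can pass 0.05 by this test. The shares add up to a fixed total and are not independent of each other. Shares of normalized counts start from other baselines, since counts also grow with transcript length. In siCtrl the mean normalized count was 7044 for CERS6, 5488 for CERS2 and 995 for CERS5, so CERS6 led by counts. Point differences by counts and by TPM therefore do not measure the same drop. By counts, the CERS2 share was higher by 7.86 percentage points. The CERS5, CERS6 and CERS4 shares were lower by 1.53, 5.03 and 0.82 points of counts, and by 6.44, 2.08 and 2.56 points of TPM. For CERS4 the groups overlapped by counts (exact permutation p = 0.3), and its TPM share dropped by 1.67 points without siDNp63 replicate 1.

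**Figure D2:**
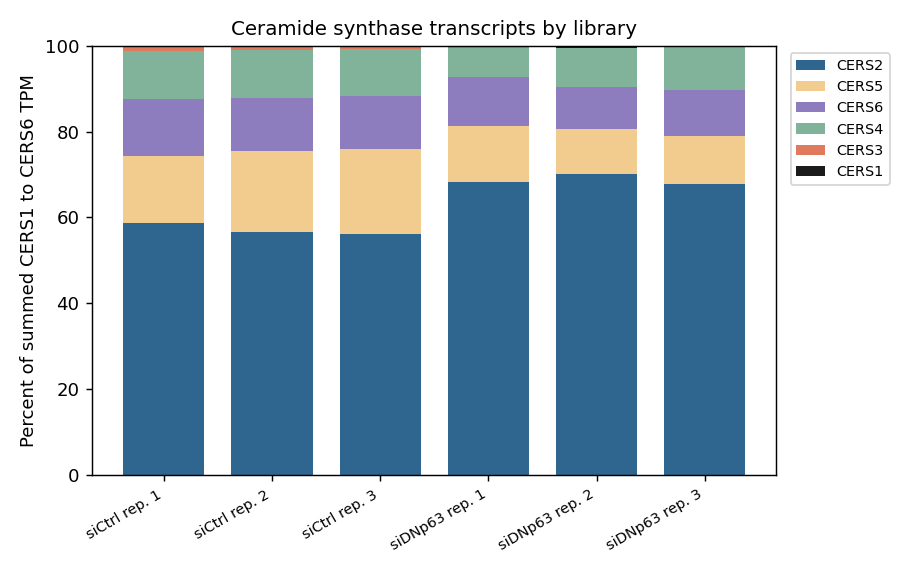
Percent of the summed TPM of the 6 ceramide synthase genes (vertical axis) held by each gene (colours) in each of the 6 libraries. The CERS2 part ends at 56.2% to 58.8% in siCtrl and at 67.8% to 70.2% in siDNp63, and the parts of CERS5, CERS6 and CERS4 above it are thinner in siDNp63.

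SMPD1 (ENSG00000166311; chromosome 11, 6390440 to 6394998, plus strand), the lysosomal enzyme that releases ceramide from sphingomyelin, had the largest rise of the 10 genes. Its normalized count was 4368, 4196 and 4132 in siCtrl and 6096, 7318 and 6501 in siDNp63. The lowest siDNp63 library was above the highest siCtrl library, although the siDNp63 libraries varied more among themselves. The log2 fold change was 0.65 (standard error 0.07, edgeR adjusted p = 2.47e-04), a 1.57-fold rise, and it was 0.71 without siDNp63 replicate 1. On the TPM scale it went from 96.2 ± 3.42 to 145 ± 6.64 (SD, n = 3), and the transcript length implied by counts and TPM differed only 1.07-fold between libraries.

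ASAH1 (ENSG00000104763; chromosome 8, 18055992 to 18084998, minus strand), which cuts ceramide to sphingosine and a fatty acid in the lysosome, rose by a smaller step. It was at 7869, 8001 and 8163 normalized counts in siCtrl and at 10410, 9995 and 10118 in siDNp63, so the spread within each group was far smaller than the gap between them. The log2 fold change was 0.34 (standard error 0.04, edgeR adjusted p = 2.67e-04), a 1.27-fold rise.

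UGCG (ENSG00000148154; chromosome 9, 111896814 to 111935369, plus strand) makes glucosylceramide, the first step towards most glycosphingolipids. It was at 2128, 2211 and 2211 normalized counts in siCtrl and at 3349, 2890 and 3091 in siDNp63. All siDNp63 libraries were higher, with siDNp63 replicate 1 at the top, and the log2 fold change was 0.51 (standard error 0.06, edgeR adjusted p = 3.99e-04), a 1.42-fold rise. Without that library it was 0.46 (adjusted p = 1.39e-04).

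SPHK1 (ENSG00000176170; chromosome 17, 76376584 to 76387860, plus strand) phosphorylates sphingosine to sphingosine 1-phosphate. It was at 744, 668 and 687 normalized counts in siCtrl and at 404, 620 and 623 in siDNp63. The groups did not overlap, but siDNp63 replicate 1 lay 0.62 below the mean of the other 2 libraries on the log2 scale, a larger gap than that between those 2 libraries and siCtrl. The log2 fold change of −0.34 did not pass the test (standard error 0.16, 95% interval −0.71 to 0.02, edgeR adjusted p = 0.134), and it was −0.17 without siDNp63 replicate 1 (adjusted p = 0.0889).

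**Figure D3:**
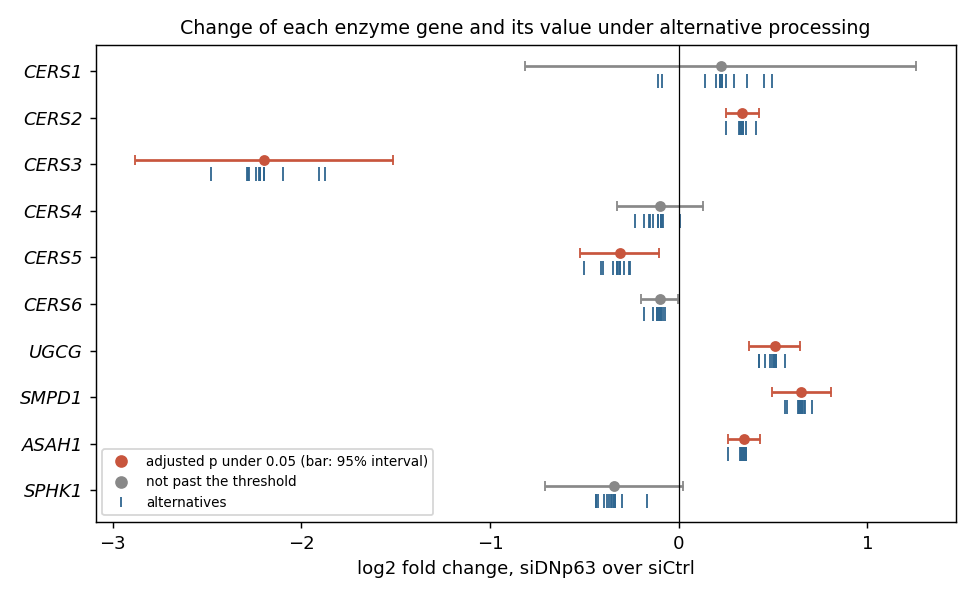
Log2 fold change of siDNp63 over siCtrl (horizontal axis) for each enzyme gene, with its 95% interval (red where the edgeR adjusted p was under 0.05, grey otherwise), and beneath it as blue ticks the values under the alternative ways of processing. CERS3 lies at −2.20, and the other called genes lie between −0.31 and 0.65.

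In siCtrl the 10 genes spanned a wide range of levels per transcript length. CERS2 was the most abundant, at 165 to 168 TPM, and ASAH1 followed at 159 to 165 TPM, so that the ranges of these neighbours touched. SMPD1 came next with 92.6 to 99.4 TPM, then CERS5 with 43.7 to 58.7, CERS6 with 36.6 to 37.6, CERS4 with 31.4 to 33.0, UGCG with 22.4 to 27.7, SPHK1 with 14.6 to 16.2, CERS3 with 1.63 to 2.60 and CERS1 with 0.354 to 0.793. Below ASAH1, no range overlapped that of the next gene. Only 5.72% of the tested genes had a mean TPM as high as CERS2 in siCtrl, and 10.9% as high as SMPD1, whereas 75.7% were at or above CERS3 and 88.6% at or above CERS1. In siDNp63 the ranges of CERS2 (206 to 221 TPM) and ASAH1 (188 to 199 TPM) no longer touched.

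RefSeq promoter windows, from 250 bases before to 50 bases after each annotated start on GRCh38.p14, were found for 7 of the 10 genes (13 windows). No window was found for CERS2, CERS4 or ASAH1. Upstream sequences of the called genes SMPD1, UGCG and CERS5 are shown as examples of genes that rose and fell, each up to the outermost annotated start of the gene, 5′ to 3′ on the gene's strand. Capitals mark GC boxes, the motif GGGCGG of SP family factors on either strand. SMPD1 is chr11:6390224-6390439 on the plus strand, UGCG is chr9:111896564-111896813 on the plus strand, and CERS5 is chr12:50167534-50167619 on the minus strand.
SMPD1: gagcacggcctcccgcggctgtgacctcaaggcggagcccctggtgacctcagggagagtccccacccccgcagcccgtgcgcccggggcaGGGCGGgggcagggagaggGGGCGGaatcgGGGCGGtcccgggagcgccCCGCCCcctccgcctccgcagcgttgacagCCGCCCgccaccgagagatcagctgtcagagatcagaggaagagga
UGCG: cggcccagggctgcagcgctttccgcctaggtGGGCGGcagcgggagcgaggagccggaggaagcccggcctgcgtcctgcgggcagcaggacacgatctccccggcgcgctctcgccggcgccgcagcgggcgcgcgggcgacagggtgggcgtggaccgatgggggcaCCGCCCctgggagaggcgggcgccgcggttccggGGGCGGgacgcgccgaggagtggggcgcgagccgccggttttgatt
CERS5: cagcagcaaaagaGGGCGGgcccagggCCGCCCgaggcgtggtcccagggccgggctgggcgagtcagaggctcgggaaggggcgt
The SMPD1 sequence holds 5 GC boxes, that of UGCG 3 and that of CERS5 2. Over the full windows of the 7 genes, 9 of 13 hold at least 1, against 45.0% of all 35116 RefSeq windows, and of the 4 windows of CERS3, which are not printed, 2 hold none. Some of the CERS3 windows overlap each other, so the 13 windows are not separate stretches. The E-box CACGTG, which 7.26% of all windows hold, was in none of the 13 windows, and the p53-family half-site, which 6.63% hold, was in 1 window of SPHK1. A match describes these letters only.

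Beyond the 10 enzymes, 85 genes of sphingolipid metabolism were listed in 9 groups by role, of which 77 were tested. In the same edgeR test 26 rose and 16 fell, and 5 higher and 1 lower genes also passed the fold change threshold. The called share was 54.5%, against the 33.6% of all genes given above. The lists were drawn up with earlier results of these data known, so this contrast only describes them and tests nothing about the pathway. By role, the called share ran from 16.7% for the other ceramidases and ceramide kinase to 90.9% for glycosphingolipid synthesis, in lists of 4 to 14 tested genes. The median log2 fold change was 0.10. Without siDNp63 replicate 1, all 42 of these calls were kept and the counts were 29 and 18. With counts scaled by library size alone, which moves the median of all genes to −0.11, 15 were higher and 20 lower, so that the lower genes outnumbered the higher ones.

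Serine palmitoyltransferase opens the pathway by joining serine and palmitoyl-CoA, and the ORMDL proteins restrain it. Of 8 genes of the enzyme and its regulators, 4 rose and 3 fell. SPTLC2, a catalytic subunit, was at 9024, 8840 and 8799 normalized counts in siCtrl and at 16631, 15504 and 15421 in siDNp63. The rise was 0.83 on the log2 scale (standard error 0.04, edgeR adjusted p = 7.89e-06), larger than that of any of the 10 enzyme genes that rose. SPTLC3, the alternative catalytic subunit, rose from a low level, 129 to 301 normalized counts (log2 fold change 1.21). ORMDL3 fell from 4272 to 2906 (−0.56), and the small subunit gene SPTSSA fell from 4391 to 3809 (−0.21). These 4 calls held under all 14 alternatives. The other 3 did not, as SPTLC1 (0.17) lost its call in 8, ORMDL1 (−0.27) in 6 and ORMDL2 (0.22) in 5, and the 3 ORMDL genes did not share a direction. Among the next enzymes, KDSR, which reduces ketosphinganine, rose by 0.20 on the log2 scale, DEGS1, the desaturase that completes ceramide, was lower (−0.23), and FA2H, which hydroxylates the fatty acid, rose from 94.9 to 235 normalized counts (1.31). For KDSR the call ended with library size scaling or transcript lengths in edgeR.

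Fatty acid elongases supply the acyl chains that ceramide synthases use. Of 14 genes of elongation and acyl-CoA supply, 5 rose and 1 fell, while 8 were not called. Of the 5 higher calls only that of ELOVL2 held under all 14 alternatives, and ELOVL1 (0.14) lost its call in 10 and HACD2 (0.16) in 7. ELOVL2, which elongates polyunsaturated chains, was at 85.9, 73.8 and 98.0 normalized counts in siCtrl and at 293, 304 and 264 in siDNp63 (1.74 on the log2 scale, SE 0.14, edgeR adjusted p = 6.00e-05). ELOVL7, an elongase of saturated long chains, fell from 1939 to 1530 (−0.34). HSD17B12, the reductase of the elongation cycle, was at 0.15 and ACBD3, a Golgi adaptor with an acyl-CoA-binding domain, at 0.18, and their calls ended in 7 and 2 of 14 alternatives.

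Genes of the routes that use ceramide changed in both directions. Both sphingomyelin synthases rose, SGMS2 from 1494 to 2612 normalized counts (0.81 on the log2 scale) and SGMS1 from 2115 to 2825 (0.42), and of the 7 tested genes of sphingomyelin metabolism 2 rose and 1 fell. The lower gene, the neutral sphingomyelinase SMPD4 (−0.21), lost its call in 8 of 14 alternatives. Of 11 glycosphingolipid synthesis genes tested, 5 rose and 5 fell, a called share of 90.9% against 33.6% of all genes. Of these calls, ST3GAL5 (0.43) lost its call in 7 and UGT8 (−0.16) in 5 of 14 alternatives. A4GALT, which makes the globoside Gb3, was at 167, 148 and 146 normalized counts in siCtrl and at 342, 497 and 505 in siDNp63, with siDNp63 replicate 1 between siCtrl and the other libraries (1.54 on the log2 scale, SE 0.16, edgeR adjusted p = 2.84e-04). The change was 1.70 without siDNp63 replicate 1. B4GALT5, which makes lactosylceramide from the product of UGCG, rose by 0.49, while B3GALNT1, which extends Gb3, and GLTP, a glycolipid transfer protein, were lower (−0.65 and −0.39).

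Of 12 tested genes of glycosphingolipid breakdown, most of which act in the lysosome like SMPD1 and ASAH1, 3 rose and 2 fell. This called share was 41.7%, against 33.6% of all genes. It counts GLA (−0.16), whose call ended in 8 of 14 alternatives. NEU1, a lysosomal sialidase, rose from 497 to 623 normalized counts (0.33 on the log2 scale). GM2A, the activator protein that lifts ganglioside GM2 from membranes for its breakdown, was at 3791, 3570 and 3746 in siCtrl and at 2269, 2226 and 2233 in siDNp63, or −0.72 on the log2 scale (standard error 0.04, edgeR adjusted p = 1.05e-05). The saposin precursor gene PSAP, whose product helps ASAH1 and several of these hydrolases, was at 0.03 (adjusted p = 0.624). Of 6 other genes of ceramide turnover, ACER2, the Golgi ceramidase, rose from 949 to 1420 normalized counts (0.58) and the other 5 did not pass the test.

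Among 9 tested genes that handle sphingosine 1-phosphate, 3 rose and 2 fell. SGPP2, a phosphatase that returns it to sphingosine, was at 5012, 5031 and 5080 normalized counts in siCtrl and at 8438, 8386 and 8246 in siDNp63, or 0.73 on the log2 scale (standard error 0.03, edgeR adjusted p = 5.63e-06). The receptor gene S1PR5 was lower (−0.59) under all 14 alternatives, and S1PR3 was higher (0.24), a call that ended in 3 of them. SPNS2, the exporter, was at 107, 116 and 113 in siCtrl and at 29.4, 63.3 and 68.7 in siDNp63, a log2 fold change of −1.03 (edgeR adjusted p = 0.0233), which was −0.76 without siDNp63 replicate 1, and its call ended with transcript lengths in edgeR (adjusted p = 0.0750) and without any single siCtrl library. Of 10 genes of epidermal acylceramides and the lipid barrier, 7 were tested, 1 rose and 1 fell. SULT2B1, the cholesterol sulfotransferase, rose from 162 to 367 normalized counts (1.18), and ABHD5 was at −0.17, a call that ended in 6 of 14 alternatives. CYP4F22, the acyl chain hydroxylase that acts with CERS3 in making acylceramides, had a total of 1 count over the 6 libraries.

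**Figure D4:**
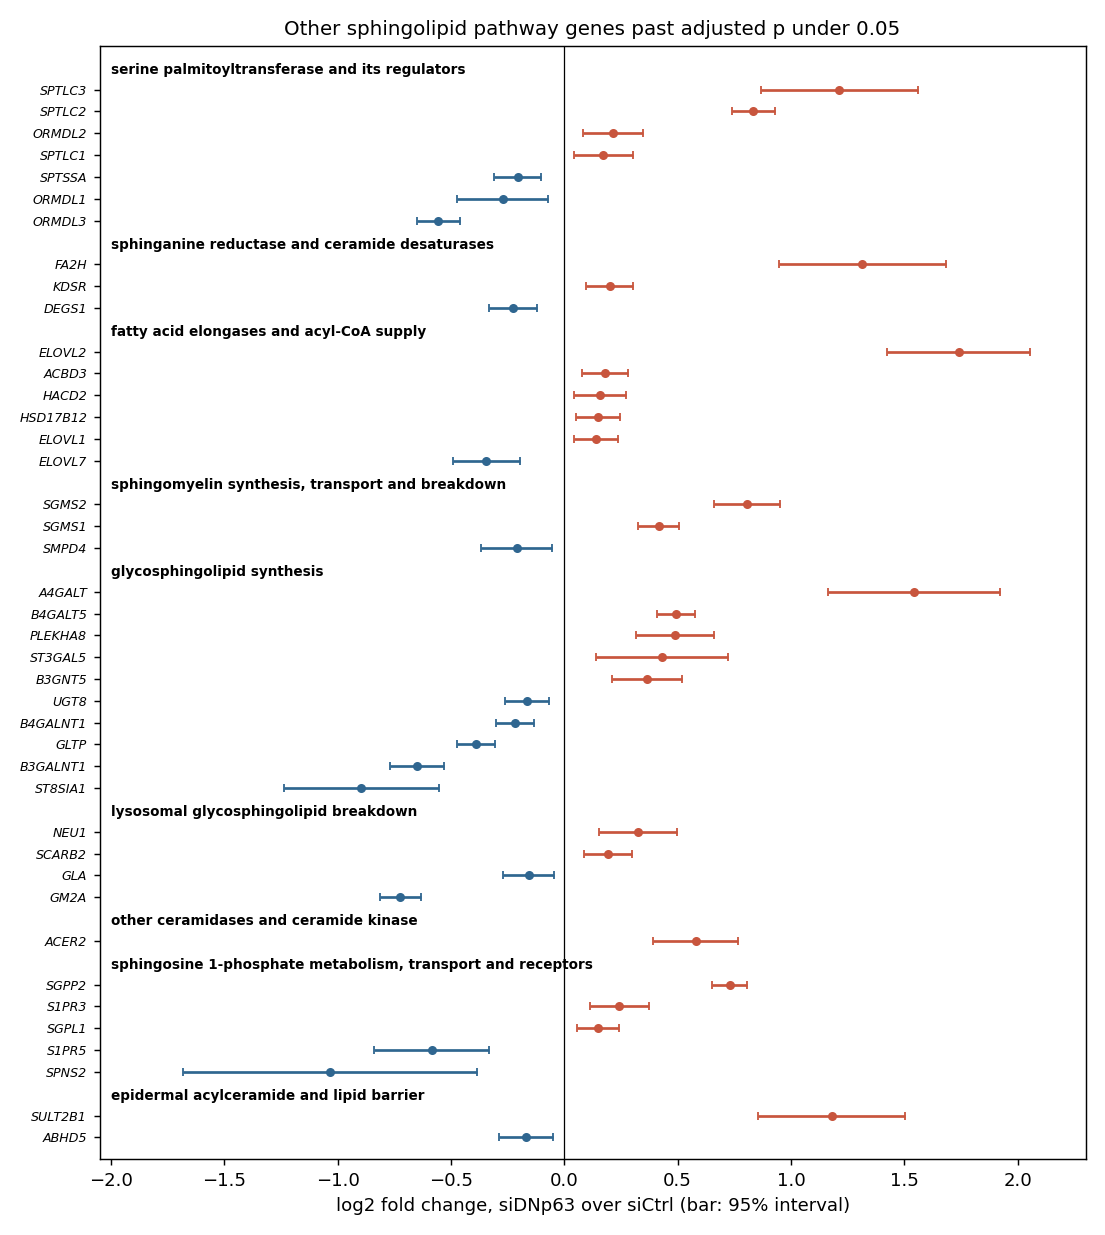
Log2 fold change of siDNp63 over siCtrl (horizontal axis) with 95% interval for 41 of the 42 other sphingolipid genes past an edgeR adjusted p under 0.05, by role (bold), higher genes in red and lower genes in blue. ELOVL2 (1.74) and A4GALT (1.54) lie farthest to the right, and SPNS2 (−1.03) and ST8SIA1 (−0.90) farthest to the left.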

How the data were processed

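Per the submitters' processing notes, bcl2fastq 2.17.1.14, kallisto 0.46.2 and the build hg38 were used, and no source names an annotation release. In the deposited table, expected counts are the authors' kallisto estimates per Ensembl gene, not scaled between libraries, and the deposited TPM values are the authors' abundances per transcript length, which sum to 1000000 per library. Kallisto divides reads among similar transcripts by an estimate, so genes with close copies are uncertain, and no member had the same counts as another gene. All 12 columns were used.

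Expected counts were rounded. Genes were filtered (filterByExpr, minimum count 10), scaled by TMM and tested with the quasi-likelihood test of edgeR 4.0.16 in R 4.3.3 with no term but the group, and Benjamini-Hochberg adjustment over 17257 genes. Standard errors were derived from the fold change and the F statistic, and intervals are 95%. The test was checked on simulated counts. In these, far fewer genes changed than were called here and no library stood apart, so such features were not covered. Library totals of 35716277 to 52598831 leave CERS1 and CERS3 with 9 to 120 counts per library and the other members with at least 316, and errors are given as the spread between libraries. Of the 40488 IDs, 35538 matched the name table, and coordinates are from the GRCh38 annotation. DESeq2 1.42.0, limma-voom (limma 3.58.1), other scalings and filters, transcript length offsets, a replicate block and leaving out each library were alternatives.

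The members, the gene lists and the tests were chosen with earlier results of these data known. Genes named are all members and, of each list, those past both thresholds and up to 3 others with the smallest p past the adjusted threshold. Outside this rule, ST8SIA1, PSAP, CYP4F22, SPTLC1, ORMDL1, ORMDL2, ELOVL1, HACD2, ST3GAL5, UGT8 and GLA were named after their values were seen. The values of 1 further gene that meets this rule are not reported here.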

Additional observations from a re-analysis of the deposited data

How the results depend on the processing

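The 4 members called higher and CERS3 kept their direction and call under all 14 alternatives. The log2 fold changes ranged from 0.25 to 0.41 for CERS2, from 0.42 to 0.56 for UGCG, from 0.56 to 0.71 for SMPD1, from 0.26 to 0.36 for ASAH1 and from −2.48 to −1.88 for CERS3, and TP63 ranged from −1.61 to −1.49. CERS5 ranged from −0.50 to −0.26 and lost its call in 5 of 14. The number of members called lower was 1 to 3 when a library was left out (3 without siDNp63 replicate 1, 2 without siCtrl replicate 1 and 1 without any of the other 4), and 1 with the replicate block, where CERS5 was at −0.32 (edgeR adjusted p = 0.0583). The block left 2777 higher and 2175 lower genes of the whole table, and 22 higher and 12 lower pathway genes. Deviations of same-numbered libraries from their group means correlated at −0.01, 0.02 and 0.03. The labels do not say whether same-numbered libraries were handled together, and these correlations cannot decide it. With library size alone, 2330 genes were higher and 4117 lower against 3177 and 2626 with TMM, and 15 pathway genes were higher and 20 lower against 26 and 16. Leaving out 1 library gave 10 to 18 lower pathway genes against 16, with 10 without siCtrl replicate 2 or 3. Among the members, directions turned for 2 genes that were not called. CERS1 ranged from −0.11 to 0.49 over the left-out libraries, being below 0 without siCtrl replicate 3 or siDNp63 replicate 2, and CERS4 from −0.16 to 0.0077, the latter without siDNp63 replicate 1. The CERS1 share of the summed CERS TPM ranged from a difference of −0.0574 to 0.0843 percentage points over the left-out libraries. The cause of these changes was not tested. Counts of CERS1 and CERS3 limit what can be said of both.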
